A study of Mus musculus with 2 samples.

Results

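EP300 (p300) is a histone acetyltransferase that other proteins bring to DNA, and its peaks are widely used as marks of active enhancers. The peaks described here are those of the optimal list, on chromosomes 1 to 19, whose summit lay over 100 kb from every transcription start site (TSS) of a protein-coding transcript in GENCODE M21 (mm10). They were 1757 of 17169 peaks, 10.2% of the list (95% Clopper-Pearson interval 9.78 to 10.7%). When summits within 0.496 kb of each other, the usual width of a call, were joined and the strongest kept, they made 1500 sites.

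Enhancers can act across long stretches of DNA by coming close to a promoter in the folded chromosome, and genes of development are known for distant ones. Such an enhancer can skip the nearest gene, or lie inside the intron of a gene that it does not serve. For this reason both flanking genes and any host gene are given below. They state position only: no expression or contact was measured, and no peak was linked to a gene.

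The material was heart tissue of newborn mice (postnatal, age 0 days) of the strain labelled B6NCrl, precipitated with an antibody labelled EP300 and sequenced. No genotype or treatment is given, and no second condition was compared. The 2 samples form 1 group and are labelled biological replicates 1 and 2. They share 1 biosample and 1 donor identifier, so the spread between them may be technical. The files hold peak lists and no read counts, so the depth is unknown, and intervals cover counting error over peaks only. Whole tissue was used, and which cell type a peak came from was not measured. Of 8 heart muscle markers, 7 had a peak within 100 kb of the TSS, and Myl7 had 0. The 8 markers had 91 such peaks in all, with 27 for Myh6 and 21 for Tnnt2. Of 4 neuronal markers only Rbfox3 had any (2 peaks), and none of 4 liver markers did. The share of all protein-coding genes with such a peak was not counted, so no enrichment is drawn from these counts.

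The sequences of 6 of the 10 strongest of these peaks are printed first, since the motif results refer to them: the strongest site, and the 5 with a match to a motif that was more frequent at summits than beside them. Each window reaches 50 bp to either side of the summit, on the plus strand of mm10, and capitals mark the matches.
Zbtb16 intron (chr9:48723725-48723825): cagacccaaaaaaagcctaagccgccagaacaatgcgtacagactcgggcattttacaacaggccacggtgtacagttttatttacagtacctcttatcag
Lpp to Tprg (chr16:25059336-25059436): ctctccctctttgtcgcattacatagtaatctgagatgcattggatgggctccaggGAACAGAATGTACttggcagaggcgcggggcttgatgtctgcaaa
Irf2bp2 to Tomm20 (chr8:126736644-126736744): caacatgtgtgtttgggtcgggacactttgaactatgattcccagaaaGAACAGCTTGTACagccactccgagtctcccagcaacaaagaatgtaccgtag
Ednra to Ttc29 (chr8:78025083-78025183): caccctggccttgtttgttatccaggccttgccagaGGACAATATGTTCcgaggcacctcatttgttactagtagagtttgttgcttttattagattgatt
Akr1e1 to Klf6 (chr13:5604330-5604430): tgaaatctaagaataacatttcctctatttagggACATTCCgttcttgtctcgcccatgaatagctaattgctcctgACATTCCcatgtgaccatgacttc
Irx3 to Irx5 (chr8:91988043-91988143): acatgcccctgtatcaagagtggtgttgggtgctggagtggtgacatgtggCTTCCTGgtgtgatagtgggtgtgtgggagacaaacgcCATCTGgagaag

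The capitals in the Tprg, Irf2bp2 and Ttc29 windows match the half-sites GNACA and TGTNC spaced by 3 bases, the palindromic element (GRE) that glucocorticoid and related steroid receptors bind. The matches were centred 12, 4 and -8 bp from the summit. In windows of this length 2.4% of all sites over 100 kb held one, against 1.89% of all sites of the list. The Klf6 window held the TEAD motif GGAATGT, printed as its reverse complement ACATTCC, at both -13 and 30 bp from the summit. A TEAD match stood in 4.8% of such windows, against 3.52% in all sites. The Irx3 window held the ETS motif CAGGAAG, read there as CTTCCTG, and the E-box CATCTG bound by HAND and TWIST dimers. Their shares over all these sites were 12.7% and 11.9%, against 10.5% and 8.0% in all sites. All sites of the list include those at promoters. The sites 10 to 100 kb from a TSS were closer. In 100 bp windows the GRE stood in 2.33% of sites over 100 kb and 2.48% of those nearer sites. There TEAD stood in 4.67% and 4.69%, and the ETS motif in 12.73% and 12.51%. In 200 bp windows CATCTG stood in 19.3% and 17.8%. No motif past the threshold had a match in the Zbtb16 window. A match is a description of the letters and not a measured binding site.

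The strongest of these peaks lay inside an intron of Zbtb16, the gene of a zinc-finger repressor of transcription. It covered chromosome 9, 48723511 to 48723979, 112170 bp from the TSS of Zbtb16 and 118622 bp from that of Nnmt, a nicotinamide methyltransferase. Signal values are the authors' own, by a formula that the sources used here do not give, and are compared here only between peaks of 1 list. The value was 310.9 there, the highest of the whole list. The peak stood at 178.1 in the replicate 1 list and 129.2 in the replicate 2 list. A neighbour in the same gene (48707303 to 48707638) had a signal of 161.7, with 86.4 and 82.4 in replicates 1 and 2, and its nearest TSS was that of Nnmt, 102311 bp away. The 5 sites inside Zbtb16 over 100 kb from a TSS had signals of 310.9, 161.7, 90.3, 35.3 and 29.2.

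The next was a peak of signal 265.6 between Lpp, a focal adhesion protein, and Tprg (chromosome 16, 25059215 to 25059558). It stood at 161.5 in replicate 1 and 109.7 in replicate 2. It lay in no gene, 227431 bp from Tprg and 337531 bp from Lpp, but 253 bp from the TSS of the long non-coding RNA (lncRNA) A230028O05Rik. The peak next to Irf2bp2, a corepressor of the interferon regulatory factor IRF2, had a signal of 262.1 (chromosome 8, 126736534 to 126736887). Its values were 144.9 and 111.4 in the replicates, and it lay 142708 bp from Irf2bp2 and 209146 bp from Tomm20, a subunit of the mitochondrial import receptor. Akr1e1, an aldo-keto reductase, and Klf6, a Krüppel-like transcription factor, flanked a peak of 231.2 (chromosome 13, 5604203 to 5604529) inside the lncRNA gene Gm35330. That peak was 257102 bp from Klf6, with 134.0 in replicate 1 and 102.5 in replicate 2.

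Ednra, the endothelin receptor type A, and Ttc29 shared 2 of the 10 strongest. The stronger (chromosome 8, 77988398 to 77988656) had a signal of 201.6, with 122.2 and 80.05 in the replicates. The other (78025045 to 78025307) had 147.2, with 84.8 and 54.8. Both were nearer to Ttc29, 224760 and 188164 bp away, than to Ednra, 264101 and 300697 bp away. Irx3 and Irx5, Iroquois homeobox factors, flanked a peak of 185.3 in the lncRNA gene Gm36670 (chromosome 8, 91987961 to 91988200), 186026 bp from Irx3, with 111.9 and 72.0 in the replicates. Kif6 and Rftn1, the gene of the lipid raft protein raftlin, flanked a peak of 158.4 on chromosome 17 (49982761 to 49982953), with 92.2 in replicate 1 and 70.9 in replicate 2. Agtr1b, an angiotensin II receptor, and Tbl1xr1, a corepressor subunit, flanked the last, of 147.5 (chromosome 3, 21936050 to 21936240), with 82.8 and 53.1. It lay 1568963 bp from Agtr1b and 140512 bp from Tbl1xr1. All 10 were among the leading peaks of each replicate list, which here are as many peaks of highest signal as the optimal list holds.

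**Figure D1:**
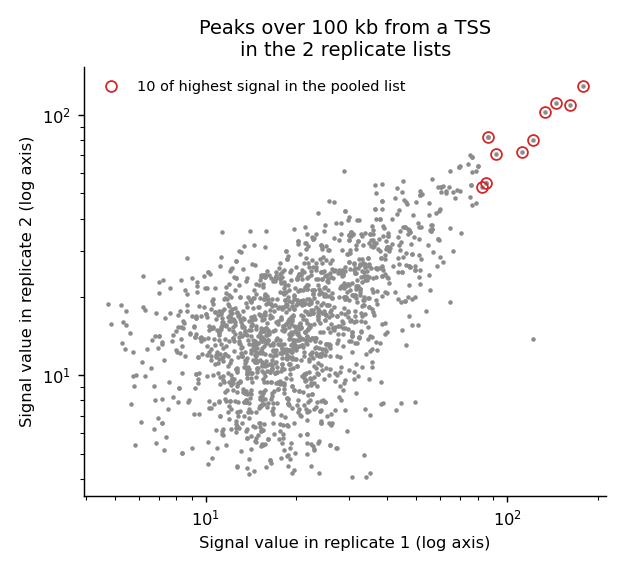
Signal value of each peak over 100 kb from a TSS in the replicate 1 list (horizontal, log axis) against the replicate 2 list (vertical, log axis), for the 1624 with a peak within 0.248 kb in both. Rings mark the 10 of highest signal in the pooled list, which lie at the upper right, from 82.8 to 178.1 in replicate 1 and from 53.1 to 129.2 in replicate 2.

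Below these leaders the replicates overlapped less. A summit of the replicate 1 leading peaks lay within 100 bp for 1179 of the 1757 peaks (67.1%) and one of the replicate 2 leading peaks for 1076 (61.2%). Both did for 817, or 46.5% (44.1 to 48.9%), and neither for 319. The share with both was 44.2% (42.9 to 45.4%) for the 6358 peaks 10 to 100 kb from a TSS and 36.1% for the 5739 within 1 kb. No test was run on these shares, since the list was chosen from the same reads. At any rank and within 0.248 kb, 1624 (92.4%) had a counterpart in both lists, 46 had none in replicate 1 and 93 none in replicate 2. Across the 1624 pairs of signal values Spearman's rho was 0.497 and Pearson's r 0.749, a description in which adjoining peaks can share 1 replicate peak. The deposited −log10 q reached 2 in 1048 (59.6%), and 1307 (74.4%) stood in the stricter conservative list, against 73.6% of the peaks at 10 to 100 kb.

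In signal these peaks differed little from nearer ones: 50.7% (48.3 to 53.1%) were above the median of the list, against 50.9% of the peaks 10 to 100 kb away. Their median signal was 31.0 (quartiles 23.7 and 44.6, range 7.04 to 310.9), and that of the nearer peaks was 31.1 (23.3 and 43.6). Of the 1000 peaks of highest signal, 99 were among them. With the list split by signal into 5 bins of equal size, 8.10% to 11.4% of the peaks in each bin were over 100 kb away. Within the set, the median was 31.6 at 100 to 200 kb, 30.2 at 200 to 500 kb, 33.8 at 500 to 1000 kb and 30.1 beyond.

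These peaks were sparse for the room they had. DNA over 100 kb from a protein-coding TSS made up 38.7% of the sequenced bases of chromosomes 1 to 19 (926.4 Mb), and held 1.90 peaks per Mb. The density was 6.19 per Mb at 10 to 100 kb, a ratio of 0.306 (0.290 to 0.323), and 93.3 per Mb within 1 kb. It went on falling with distance, from 3.42 per Mb at 100 to 200 kb (1071 peaks) to 1.65 at 200 to 500 kb (598 peaks), 0.439 at 500 to 1000 kb (76 peaks) and 0.156 beyond (12 peaks). The nearest TSS was 171217 bp away in the median and the farther of both flanking TSSs 401186 bp.

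**Figure D2:**
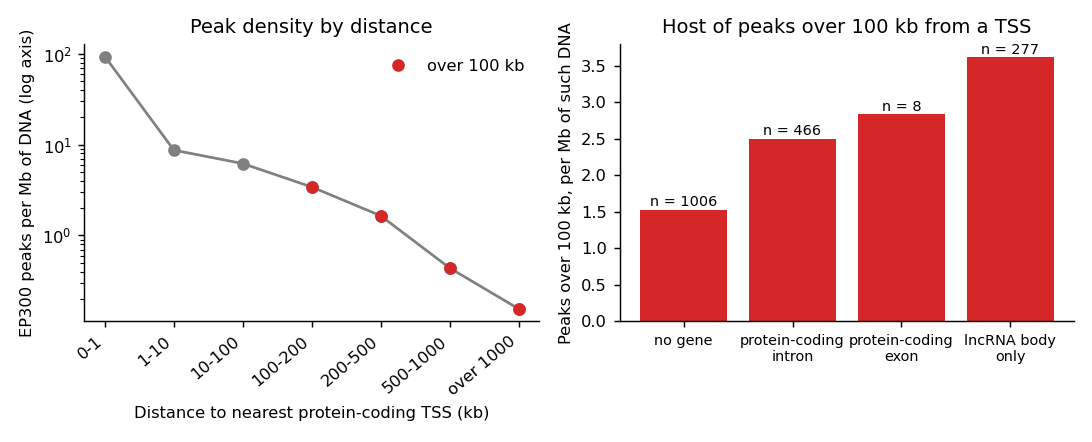
Left: EP300 peaks per Mb of sequenced DNA (log axis) by distance to the nearest protein-coding TSS, with the classes over 100 kb in red, falling from 93.3 per Mb within 1 kb to 0.156 beyond 1000 kb. Right: peaks over 100 kb from a TSS per Mb of such DNA by host class, with the number of peaks on each bar, from 1.52 per Mb in no gene to 3.62 per Mb inside lncRNA genes only.

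The 3 sites farthest from any protein-coding TSS had signals near or below the median. The farthest lay 2280969 bp from Pcdh9 and 3133383 bp from Pcdh20, both protocadherins (chromosome 14, 91604531 to 91605026), in no gene. Its signal was 31.5, with 22.5 in replicate 1 and 8.48 in replicate 2, and a second, overlapping call there had 7.44. The next was 1569605 bp from Efna5, an ephrin ligand (signal 24.1), and the one after it 1326548 bp from Zeb2, a zinc-finger repressor (signal 24.6). All 3 lay outside the leading peaks of replicate 2. At the limit itself, the nearest peaks inside were at 100034 bp (Rabgap1l, signal 20.1), 100070 bp (Ccdc192, 30.9) and 100084 bp (Plcb4, 8.26). Those just outside were at 99902 bp (Mycn, 24.3), 99922 bp (Rgl1, 59.8) and 99974 bp (Itpr2, 32.6).

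More of these peaks lay inside genes than the DNA they could occupy. In no gene lay 1006 (57.3%, 54.9 to 59.6%), against 71.3% of the DNA over 100 kb from a TSS. Introns of protein-coding genes held 466 (26.5%, 24.5 to 28.7%), against 20.2% of that DNA, and exons 8. Another 277 (15.8%, 14.1 to 17.6%) lay only inside an lncRNA gene, against 8.27% of that DNA. Per Mb this was 1.52 peaks in no gene, 2.50 in introns and 3.62 in lncRNA genes. Introns can be this far from a TSS only in long genes. Peak density fell with distance from a TSS, and these shares of DNA were not matched for distance. With a limit of 200 kb the intronic share of peaks was 17.8%, and the share of DNA at that limit is not given.

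Of the 391 sites inside a protein-coding gene, 370 lay in a gene that was also a flank, and for 264 the host had the nearest TSS. The 391 sites were spread over 213 host genes. Gm20388, a gene model of 4435 kb, led with 10 sites but was the flank of none. Cdkal1, which modifies transfer RNA, held 8 sites with signals up to 131.2. Fhod3, a formin that assembles actin in heart muscle sarcomeres, held 7, with the 2 strongest peaks at 124.3 (69.6 and 51.1 in the replicates) and 122.3 (78.6 and 45.8). Ctif, a translation initiation factor of the nuclear cap-binding complex, held 7 sites with signals up to 91.0.

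Start sites of non-coding transcripts were near some of these peaks, since the rule used protein-coding transcripts only. The TSS of an lncRNA was within 1 kb for 86 (4.89%, 3.93 to 6.01%), close to the 5.06% of the peaks 10 to 100 kb away, and within 10 kb for 351. After A230028O05Rik the strongest was a peak of 130.5, chosen after its value was seen, 56 bp from the lncRNA E130101E03Rik and 199961 bp from Tbx20, a T-box factor of the heart. It had 69.1 in replicate 1 and 63.0 in replicate 2. Only 219 peaks were over 100 kb from the TSS of every gene of any type. Of the 1757, 267 were within 100 kb of a transcript of a protein-coding gene that is not itself annotated as protein-coding, and 9 of these within 1 kb, with signals up to 59.1 (in Ehbp1).

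The peaks were uneven across the stretches between neighbouring protein-coding TSSs. Of 2299 such intervals long enough to hold one, 679 (29.5%) did, and 363 of them held a single site. At the other end, 8 intervals held 10 or more sites each, 110 sites or 7.33% of all. Intervals that held a peak were longer in the median (535.8 kb) than all 2299 (384.1 kb). Still, of 324 over 1 Mb, 175 held none. The longest empty one ran for 4668 kb from Tenm3 to Aga.

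The interval from Rad51b to Zfp36l1 on chromosome 12 held the most, 19 sites in 24 peaks over 815 kb. Rad51b is a DNA repair gene, Zfp36l1 encodes a protein that speeds the decay of messenger RNA, and 5 of the sites lay inside Rad51b. The highest signal was 82.0 and the sum 838.2. Cd83 to Jarid2 on chromosome 13 held 17 sites with signals up to 68.3 over 945 kb. Jarid2 encodes a partner of the Polycomb repressive complex that is needed for heart development. Plk2, a polo-like kinase, to Actbl2 on chromosome 13 held 16 sites with signals up to 111.7. Disc1 to Sipa1l2 on chromosome 8 was the densest of these, with 13 sites in 438 kb and signals up to 65.2. Zfp608, a zinc-finger gene, to Gramd3 on chromosome 18 held 12 sites over 1410 kb, with signals up to 68.2.

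**Figure D3:**
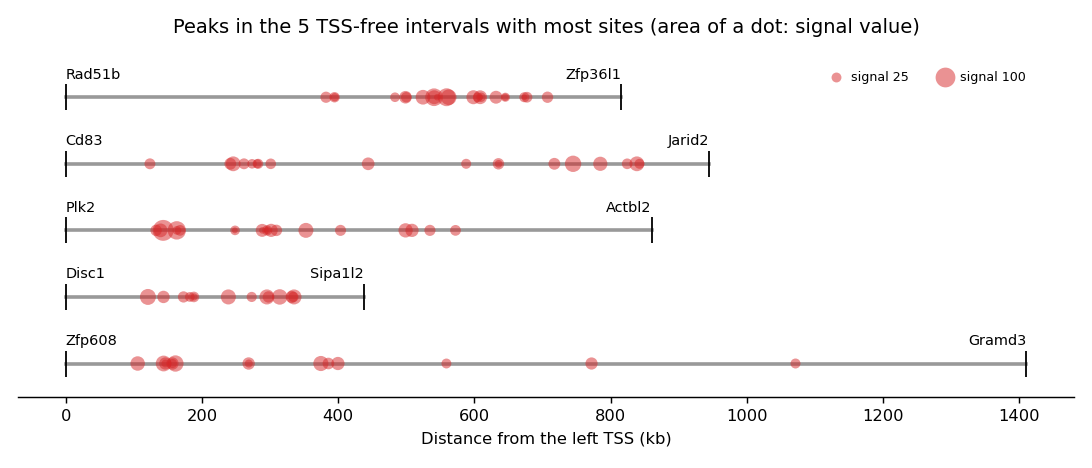
Peaks over 100 kb from a TSS in the 5 intervals with most sites, by distance from the left TSS (kb). Each dot is a peak and its area is the signal value; the ends of each line are protein-coding TSSs. The 24 peaks between Rad51b and Zfp36l1 span 325.1 kb, and the 18 between Cd83 and Jarid2 span 718.5 kb.

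On a finer scale, most sites stood alone. With summits within 10 kb joined, 175 clusters held 2 or more sites and 38 held 3 or more. The highest summed signal was that of the 5 peaks in Zbtb16, 482.3 over 10417 bp. The 8 peaks in Fhod3 summed to 448.2 over 33513 bp, and 4 peaks between Akr1e1 and Klf6 to 416.9 over 10715 bp.

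Both flanking genes were counted in the gene lists. Over all protein-coding genes that border DNA over 100 kb from a TSS, 1217 of 3427 (35.5%) flanked at least 1 site, with a median of 0 sites a gene. A site counts for the gene on each side, and genes with longer flanks have more room. The room is therefore given with each list: over all bordering genes the median was 228.1 kb of such DNA a gene, with 1.63 sites per Mb. Because peak density fell with distance from a TSS, sites per Mb are not matched for distance between lists of unlike room.

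Among cardiac transcription factors and cofactors, 19 of 27 bordering genes (70.4%, 49.8 to 86.2%) flanked a site, with a median of 2 sites a gene. Their median room was 569.9 kb, and the density 2.47 sites per Mb. Hand2, a basic helix-loop-helix factor of the right ventricle, flanked 6 sites. Their signals were 85.7, 43.0, 34.2, 32.9, 21.9 and 21.8, between 106815 and 427444 bp from Hand2, with Fbxo8 on the other side. In the replicates the first had 51.05 and 37.3, and the last was without a replicate 2 call. Tbx3, a T-box factor of the conduction system, flanked 6 sites 337860 to 994878 bp away, the strongest of 59.0 (36.7 and 25.9 in the replicates), and was the nearer flank of 1. Med13l lay on the other side, and the farthest site was in an intron of Med13l. Mef2a, Myocd, Isl1, Irx4, Hey1, Foxp1, Shox2 and Zfhx3 bordered such DNA and flanked none.

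Of 38 genes of heart muscle structure, 9 bordered such DNA (23.7%, against 15.6% of all protein-coding genes). In the other lists that share ran from 18.2% (liver genes) to 82.1% (neuronal genes). Of the 9 muscle structure genes, 7 flanked a site (77.8%, 39.99 to 97.2%), with a median of 1 site a gene. Their density was 2.53 sites per Mb and their median room 259.2 kb. Fhod3 flanked the 7 sites inside it. Gja1, the gap junction protein connexin 43, flanked 4, the strongest of 136.2 at 601840 bp (75.7 and 53.8 in the replicates), and was the nearer flank of 1. That strongest peak lay in the lncRNA gene Gm36827 and was nearer to Hsf2, at 505468 bp. Tpm1, a tropomyosin, flanked 3, the strongest of 78.6 at 114493 bp (40.7 and 30.8). All 3 lay in the lncRNA gene Gm19299, with Tln2 on the other side. Of ion channel and calcium handling genes, 7 of 13 (53.8%, 25.1 to 80.8%; median 1) flanked a site, at 0.777 sites per Mb with a median room of 765.6 kb. Pln, the inhibitor of the sarcoplasmic calcium pump, had a site of 98.3 at 161503 bp (51.5 and 49.3), with Slc35f1 on the other side. Slc8a1, the sodium-calcium exchanger, flanked 2 sites of 27.3 and 21.3, with Pkdcc on the other side. The site of 21.3 lay 1311850 bp from Slc8a1 in the lncRNA gene AC134555.1. It had 12.7 in replicate 1 and 4.42 in replicate 2.

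Of endothelial and endocardial genes, 8 of 12 (66.7%, 34.9 to 90.1%; median 1.5) flanked a site, at 2.71 sites per Mb with a median room of 689.9 kb. Ets1, an ETS factor, flanked 8, with signals from 19.98 to 75.7 (49.4 and 25.3 for the strongest) and Kirrel3 on the other side. Tcf4, an E protein, flanked 5, the strongest of 82.1 (47.2 and 36.1), which had Ccdc68 as its other flank. Nrp1, a receptor for semaphorins and vascular endothelial growth factor, flanked 4, the strongest of 111.0 at 246057 bp (60.4 and 53.1). The other flank of that strongest site was Pard3. Of fibroblast and matrix genes, 6 of 16 (37.5%, 15.2 to 64.6%; median 0) flanked a site, at 1.30 sites per Mb with a median room of 217.4 kb. These included Has2, a hyaluronan synthase, with 2 sites of up to 79.4, Ltbp1, which binds latent TGF-beta, with 2 of up to 38.5, and Fbn2, a fibrillin, with 1 of 67.3. None of these 3 genes was the nearer flank of its sites.

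Among secreted growth factors and their receptors, 13 of 22 (59.1%, 36.4 to 79.3%; median 1) flanked a site, at 2.14 sites per Mb with a median room of 488.2 kb. Tgfbr2, the type II TGF-beta receptor, flanked 5 sites with signals from 25.5 to 53.7, with Rbms3 on the other side. The strongest had 36.0 in replicate 1 and 20.8 in replicate 2, and the weakest 4.73 and 18.7. The site of 36.6 lay in an intron of Rbms3. Fgf9, a fibroblast growth factor, flanked 4, the strongest of 85.2 (51.1 and 33.3), and was the nearer flank of 1. The other flank was 1700129C05Rik. Tgfb2, a TGF-beta ligand, flanked 4, the strongest of 38.6 (13.1 and 29.6), with Lyplal1 on the other side.

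The glucocorticoid response and circadian clock list had the most sites per Mb and also the smallest median room. Of 16 bordering genes 10 (62.5%, 35.4 to 84.8%; median 1) flanked a site, at 7.30 sites per Mb, with a median room of 74.3 kb. Irf2bp2 flanked 9 sites, for 2 of which it was the nearer gene. After the 262.1 already described, the strongest were 122.1, 55.1 and 39.2, with 75.3, 34.8 and 25.1 in replicate 1 and 48.3, 26.2 and 31.3 in replicate 2. Those 3 lay in the lncRNA gene Gm31718. Zbtb16 flanked the 5 sites in its introns. Ppargc1a, the coactivator PGC-1 alpha of mitochondrial genes, flanked 5, the strongest of 91.9 at 332067 bp (56.2 and 36.6), and was the nearer flank of 1. Dhx15 lay on the other side. Irf2bp2 and Zbtb16 held 2 of the strongest peaks of the whole list and were known when these gene lists were made, so their place here adds nothing independent. They flanked 9 and 5 of the 31 sites counted for this list, and no density was taken without them.

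The contrast lists were not empty. Of 23 neuronal genes 10 (43.5%, 23.2 to 65.5%; median 0) flanked a site. They had a median room of 1705 kb, the largest of all lists, and 0.476 sites per Mb, the lowest. The 2 were not told apart, since no rate was matched for distance. Gria2, a glutamate receptor subunit, flanked 8 sites with signals up to 71.1, Cntn5, a contactin, 3 with signals up to 143.1, and Cntnap2, a neurexin family member, 3 with signals up to 50.6. For none of the sites of Gria2 and Cntn5 was that gene the nearer flank. Of 4 liver genes 2 did (50%, 6.76 to 93.2%; median 0.5), at 0.812 sites per Mb with a median room of 1207 kb: Foxa2, a forkhead factor, 3 sites with signals up to 43.5, and Cps1, a urea cycle enzyme, 1 of 43.5. Counting only the nearer flank, 789 of the 3427 genes remained (23.0%). By list these were 13 of the 27 cardiac factors (48.1%), 5 of the 9 muscle structure genes (55.6%), 6 of the 13 ion channel and calcium genes (46.2%) and 8 of the 12 endothelial genes (66.7%). They were 2 of the 16 fibroblast and matrix genes (12.5%), 6 of the 22 growth factors and receptors (27.3%), 8 of the 16 glucocorticoid and clock genes (50%), 4 of the 23 neuronal genes (17.4%) and 1 of the 4 liver genes (25%).

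**Figure D4:**
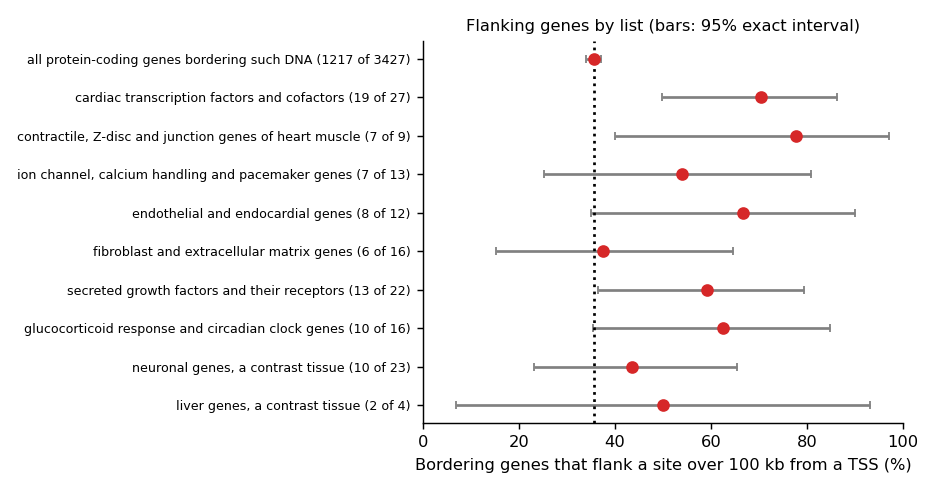
Share of genes bordering DNA over 100 kb from a TSS that flank at least 1 site, by gene list, with counts in the labels and 95% exact intervals as bars. The dotted line marks the 35.5% of all such genes; cardiac transcription factors lie at 70.4% and neuronal genes at 43.5%.

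The strands of the flanking genes were also uneven. In 527 peaks (30.0%) the peak lay downstream of both flanking TSSs, on the side toward which both genes are read, against 24.5% of the DNA over 100 kb from a TSS. In 287 (16.3%) it lay upstream of both, against 21.7% of that DNA. The densities were 2.33 and 1.43 peaks per Mb. The pattern was not particular to these peaks: of those 10 to 100 kb from a TSS, 27.96% lay downstream of both and 14.67% upstream of both. No share of DNA by strand was taken for that nearer class. Peaks inside a flanking gene, which lie downstream of its TSS, were not set apart.

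In base composition the sites were poorer in GC than nearer ones. In 200 bp windows at the summit the median GC content was 48.0%, against 50.5% for the sites 10 to 100 kb from a TSS, 62.5% for those within 1 kb, and 43.5% in windows 1 kb downstream of the same sites. No CpG stood in 11.1% of the windows, against 7.47% at 10 to 100 kb. Repeats covered 7.97% of the bases at summits and 22.7% in the downstream windows.

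Of 30 motifs, searched on both strands, 14 (46.7%) were more frequent at the summits of the 1500 sites than 1 kb downstream, and none less frequent, by an exact two-sided sign test with Benjamini-Hochberg adjustment over the 30. Windows are positions of 1 pooled list and not animals. Summit and downstream windows differed in GC and repeat content, as given above, and the sign test was not matched for either. CAGCTG, an E-box of helix-loop-helix factors, stood in 22.9% of summit windows and 7.60% of downstream windows (343 and 114 sites; exact sign test, adjusted p = 1.17e-30). The ETS motif CAGGAAG, which the endothelial factors ERG and FLI1 bind, stood in 19.7% and 7.33% (exact sign test, adjusted p = 2.93e-22). The myeloid PU.1 form GAGGAAGT, which shares its core letters, stood in 3.33% and 1.27% (exact sign test, adjusted p = 0.00053).

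Motifs of the GATA, MEF2, TEAD, NKX2 and MEIS families followed. Those of the T-box factors and SRF, given below, did not pass. AGATAAG, read by the zinc-finger factors of the GATA family, stood in 8.0% of summit and 2.53% of downstream windows (exact sign test, adjusted p = 1.66e-10), the MEF2 motif in 10.5% and 4.13% (adjusted p = 1.88e-10) and TEAD (GGAATGT) in 8.33% and 3.13% (adjusted p = 1.12e-09). NKX2 (TNAAGTGG) stood in 5.27% and 2.33% (exact sign test, adjusted p = 8.61e-05), and TGACAG, bound by MEIS factors, in 24.8% and 15.7% (adjusted p = 3.60e-09). Of 5 motifs, the E-box CAGCTG and those of ETS, GATA, MEF2 and TEAD factors, exactly 2 stood in 12% of summit windows and exactly 3 in 1.6%, against 2.27% and 0% downstream. None of the 5 stood in 45.8% of summit windows and 77.5% of downstream windows.

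The GRE stood in 44 summit windows (2.93%) and in 1 downstream window (0.0667%; exact sign test, adjusted p = 2.61e-11). The ratio of 44 rests on that 1 window and moved with the setting: it was 5.5 against windows 1 kb upstream (adjusted p = 1.73e-06 by the exact sign test), 9 in 400 bp windows, 7.67 in the list of replicate 2 alone and 26 in that of replicate 1 alone. Against the upstream windows the ratio for STAT was 5.67. By signal, 22 of the 500 strongest sites held the GRE (4.4%, 2.78 to 6.59%), and 11 of the 500 middle and 11 of the 500 weakest sites (2.2% each, 1.10 to 3.90%). Also past the threshold were AP-1 (TGANTCA, 10.7% and 6.73%), SOX (ACAATGG, 5.33% and 3.07%), STAT (TTCCNGGAA, 2.27% and 0.667%), the E-box CACGTG (4.8% and 2.13%) and CATCTG (19.3% and 15.7%; exact sign test, adjusted p = 0.0292). The T-box motif AGGTGTGA (1.0% and 0.867%), the CTCF motif (0.8% and 0.733%) and RUNX (TGTGGTT, 3.47% and 4.13%) did not pass. Nor did ERR (TCAAGGTCA, 0.933% and 0.267%; exact sign test, adjusted p = 0.0586), CREB (TGACGTCA, 6 sites and 0; the same p), KLF/SP (GGGGCGGG, 1.2% and 0.533%), forkhead (TGTTTAC, 3.27% and 3.47%), C/EBP (TTGCNNAA, 8.67% and 9.07%), the D-box (TTATGTAA, 1.13% and 0.933%), the octamer (ATGCAAAT, 1.47% and 1.67%) or the SRF box (1.67% and 1.0%). The liver motif HNF4 (CAAAGTCCA) stood in 0.133% and 0.267%, HNF1 in none, and the PPAR and NFI motifs in under 3 windows each.

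**Figure D5:**
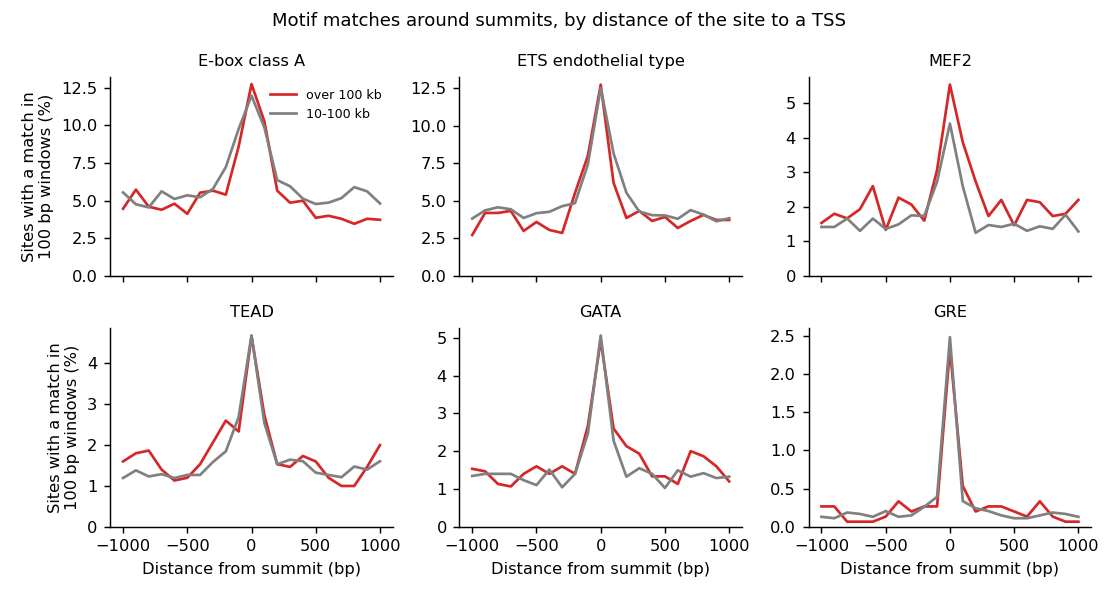
Share of sites (%) with a motif match in 100 bp windows by distance from the summit (bp), for sites over 100 kb (red) and 10 to 100 kb (grey) from a TSS, with a vertical scale for each panel. All 6 motifs peak at the summit in both classes; the GRE reaches 2.33% there in sites over 100 kb, and the MEF2 motif 5.53%.

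Against the 5356 merged sites 10 to 100 kb from a TSS, few motifs differed. Fisher's exact test (two-sided, Benjamini-Hochberg adjustment) passed 3 of 30 (10%), all more frequent in the sites over 100 kb. By Fisher's exact test these were NKX2 (5.27% against 3.30%, odds ratio 1.63, adjusted p = 0.00995), TCF/LEF (CTTTGAT, 4.07% against 2.33%, odds ratio 1.77, adjusted p = 0.00995) and MEF2 (10.5% against 8.05%, odds ratio 1.35, adjusted p = 0.0294). TCF/LEF was as frequent in the windows downstream of the same sites (4%), and the MEF2 motif stood in 4.13% of those windows against 2.82% of those beside the nearer sites. Among windows of 45 to 51% GC (676 and 1997 sites), a choice made after the data were seen, none of the 30 passed, and the odds ratios were 1.48, 1.29 and 1.11. In the conservative list and with replicate 1 alone NKX2 only passed, and with replicate 2 alone NKX2 and TCF/LEF did. For MEF2 the odds ratio was 1.23 in the list of replicate 1 and 1.13 in that of replicate 2, and for TCF/LEF it was 1.48 in the list of replicate 1. The GRE stood in 2.93% and 3.21% (odds ratio 0.911, Fisher's exact test, adjusted p = 0.866), and the E-box CAGCTG in 22.9% and 22.01% (odds ratio 1.05, adjusted p = 0.856).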

How the data were processed

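The authors deposited narrowPeak lists on mm10, 1 per replicate and, from pooled reads, an optimal and a conservative list kept by the irreproducible discovery rate (IDR). Per the deposited README files, replicate 1 was called against 2 control alignments and replicate 2 against 1. The sources used here name no aligner, peak caller or IDR threshold. The authors' signal value, −log10 q and score (a scaled IDR, not used here) were taken as deposited. Nothing was renormalized.

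Members and lists were chosen with earlier results of these data known. TSSs were those of protein-coding transcripts of protein-coding genes (54340 positions, GENCODE M21), with Python 3.11.15, SciPy 1.17.1 and the GRCm38 sequence. Genes named are those flanking or hosting the 10 strongest peaks, the 5 fullest intervals, the 3 farthest and the threshold peaks, the 5 protein-coding hosts with most sites, and 3 genes a list, of which some are not reported here. Motif tests ran on merged sites and were tested on simulated data. Alternatives were the conservative list, each replicate alone, other TSS sets, distances and windows.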

Additional observations from a re-analysis of the deposited data

How the results depend on the processing

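Against TSSs of all gene types 219 peaks remained, against 1490 to 1956 with other protein-coding sets. The numbers that follow replace either replicate by the other's leading peaks alone. Members ranged from 1677 to 2008, the density ratio to peaks at 10 to 100 kb from 0.295 to 0.333, the share above the list's median signal from 48.0% to 49.1% (50.7% in the optimal list), the median GC from 46.5% to 48.0%, the intronic share from 26.8% to 27.2%, clusters of 2 or more sites from 198 to 207, the motifs more frequent at summits were 16 in each case, and the motifs that differed from sites at 10 to 100 kb numbered 1 to 2. Agreement with both replicate lists ranged from 41.9% to 50.2%. It was 53.5% in the conservative list, 57.1% at 0.248 kb and 76.0% against all replicate peaks. With a limit of 200 kb the density ratio was 0.181, the intronic share 17.8% and the median GC 46.5%. By the nearer flank only, 789 genes flanked a site. Of 30 motifs, 14 stayed above the downstream windows in the conservative list and 10 at 200 kb, where HAND/TWIST E-boxes (ratio 1.14), SOX (1.82), AP-1 (1.32) and STAT (3.2) no longer passed with 591 sites; the ratios of SOX and STAT were 1.74 and 3.4 over all 1500. HAND/TWIST was also lost above the median signal (1.21) and SOX in 400 bp windows (1.31). The comparison with sites at 10 to 100 kb was less stable: 1 motif passed in the conservative list, 0 in 100 bp windows, 0 in windows of 45 to 51% GC and 5 in sites outside genes. Neither the GC setting nor that of sites outside genes was planned. Of the 5 motifs in sites outside genes, 3 were more frequent in the sites over 100 kb, and KLF/SP and CTCF were less frequent. NKX2 passed in both single-replicate lists, MEF2 in neither. In 400 bp windows it was the reverse: NKX2 did not pass (odds ratio 1.31, Fisher's exact test, adjusted p = 0.0873). There MEF2 (odds ratio 1.36) and TCF/LEF (1.49) passed. The cause was not tested. No paired analysis was possible because the design has 1 group. Depth is unknown.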

Other observations

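Chromosome 13 held the most of these peaks, 181 (10.3%), at 3.86 per Mb of DNA over 100 kb from a TSS, against 1.90 over all chromosomes. The 5 intervals with most sites included 2 of this chromosome, Cd83 to Jarid2 and Plk2 to Actbl2. The lncRNA gene 2610307P16Rik, also on chromosome 13, hosted 7 sites with signals up to 78.1, the most of any lncRNA gene. Pvt1, the lncRNA gene beside Myc, hosted 5 with signals up to 107.4.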
